A study of Mus musculus with 6 samples.

Results

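The 48 genes described here form the core of BMP and TGF-beta signalling: 16 ligands, 11 receptors, 8 Smads, 9 antagonists and latent binding proteins, and 4 Id genes, which BMP signalling is known to induce. They were taken by symbol from a count table of 43346 genes, and all 48 had enough reads to be among the 20210 genes tested. The libraries came from hindlimb and forearm bones of C57BL/6 mouse pups at the age of 1 day. Wild type pups gave 3 libraries, and another 3 carry the label Hdac3 CKO, a conditional knockout that the design text writes as Hdac3 CKOPRX1. Hdac3 encodes a histone deacetylase. The Prx1 enhancer is used to drive Cre in limb bud mesenchyme, from which bone, cartilage and tendon arise while blood cells and muscle fibres do not, so cells of those other lineages would keep the gene. The labels give neither the alleles nor whether the wild type pups carried Cre. Nor do they tie the libraries to separate animals or litters, so the p-values describe spread among libraries that may be technical.

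BMPs and TGF-betas are secreted as dimers and bind complexes of type I and type II serine/threonine kinase receptors. BMP receptors phosphorylate Smad1, Smad5 and Smad9, TGF-beta and activin receptors phosphorylate Smad2 and Smad3, and both groups of Smads work in the nucleus with Smad4. Smad6 and Smad7 dampen the signal inside the cell. Noggin, gremlin and the chordins trap BMPs outside it, follistatins trap activins, and latent TGF-beta binding proteins (LTBPs) hold TGF-beta inactive in the matrix. In the skeleton BMPs drive the formation of cartilage and bone, GDF5 and GDF6 take part in joint formation, and TGF-beta is stored in bone matrix.

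In Hdac3 CKO bones, Bmp5 fell to 0.378 of its wild type level and Id3 rose to 1.87 times its wild type level. No other member passed the test, so 1 of 48 rose and 1 of 48 fell at an adjusted p under 0.05 (quasi-likelihood test of edgeR, adjusted by Benjamini-Hochberg over all genes tested). Id4, at 0.410 of its wild type level, lay just outside with an adjusted p of 0.0587 in the same test. Called members were 4.17% of the 48, against 1.18% of all genes, 0.703% in the higher and 0.475% in the lower direction. Shares over 48 genes rest on few genes, and 1 call more or less moves them by 2.08 percentage points. The members were also chosen with earlier results of these data known, so these shares are a description and no test of the group.

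Most of the pathway differed little between the genotypes. The log2 fold change was under 0.5 in size for 40 of 48 members (83.3%), against 81.7% of all genes. At an unadjusted p under 0.05 in edgeR there were 9 members (18.8%), against 15% of all genes. The values of the genotypes did not overlap for 13 members (27.1%), against 22.5% of all genes. Of the members, 24 lay above 0 and 24 below, and their median log2 fold change was -0.018, against 0.000976 for all genes. Scaling by library totals alone lowered the median of all genes to -0.184, put 14 members above 0 and 34 below, and took the share of higher genes among all calls from 59.7% to 32.6%. Relative to the median of all genes, the member median under that scaling was -0.0105.

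**Figure D1:**
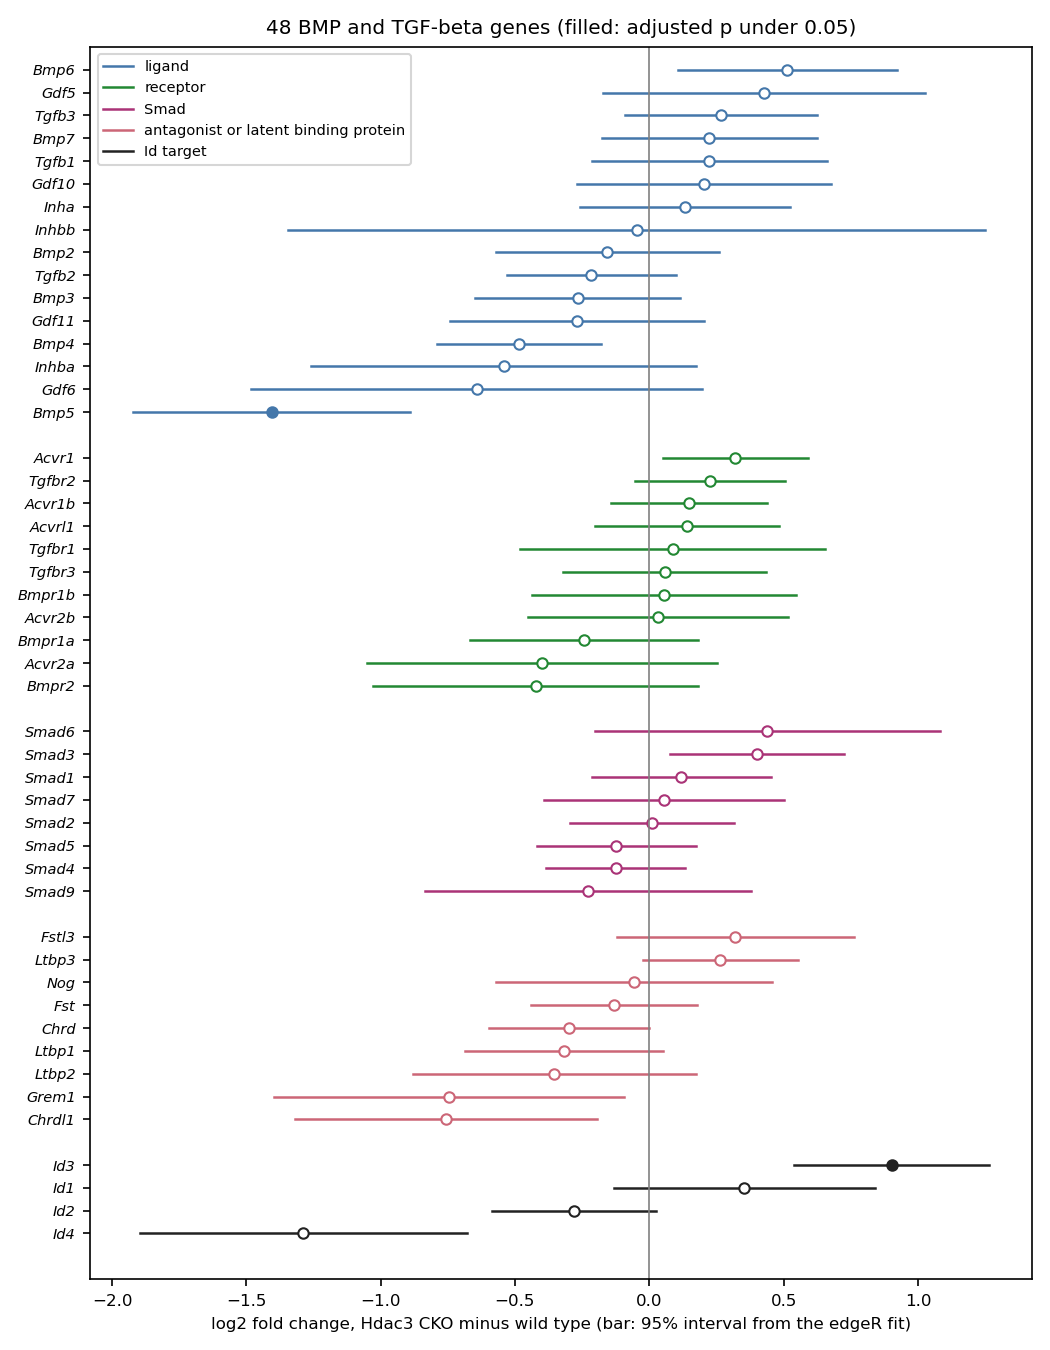
Log2 fold change of the 48 genes in Hdac3 CKO against wild type limb bone, 3 libraries per genotype, grouped by role, with the 95% interval of the edgeR fit as a bar and filled points for genes that passed the test. Bmp5 at -1.41 and Id3 at 0.90 are filled, and Id4 at -1.29 is open with an interval of -1.90 to -0.68.

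Total counts were 43389262 to 50927978 per library, and the 48 genes held 0.195% to 0.242% of them. Hdac3 itself had 48.4, 47.4 and 50.3 CPM (counts scaled to library size by TMM) in the wild type libraries against 31.8, 29.4 and 28.3 CPM in Hdac3 CKO. Its log2 fold change was -0.71 ± 0.12 (SE), at an adjusted p of 0.027 in edgeR, and leaving out any 1 of the libraries moved the adjusted p to between 0.0167 and 0.126. Hdac3 CKO replicate 3 stood apart in sex-linked genes, with Xist at 19.3 CPM against 700 to 2094 CPM in the other 5 libraries and Ddx3y at 48.1 CPM against at most 2.18 CPM. Hdac3 CKO replicate 1 was the highest of the 6 libraries in 30.3% and the lowest in 31.2% of all genes tested, while no other library passed 18.5%. Among the 48 members, wild type replicate 1 was the highest library for 20, against 18% of all genes, and Hdac3 CKO replicate 1 for 14. The 9 osteoblast markers, which define the labelled tissue, summed to 45917 to 61056 CPM in wild type and to 70426 to 100610 CPM in Hdac3 CKO. Col1a1 and Col1a2 held 90% to 95% of these sums, and without them the sums overlapped, at 2879 to 5203 CPM and 5062 to 8495 CPM. None of the 9 passed the test in edgeR, though 4 had an unadjusted p under 0.05 and DESeq2 called 3 higher. Of the 9, 4 were higher without overlap and 1, Runx2, was lower without overlap at a log2 fold change of -0.44. The libraries also held muscle RNA, with 25354 to 46615 CPM summed over 7 skeletal muscle markers. In such bulk libraries, fewer cells of a type and less RNA per cell cannot be told apart.

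The promoters of 4 genes show the sequence in front of genes that the results turn on: Bmp5 as the ligand that fell, Bmp4 as the ligand with the next smallest p, Id4 as the Id gene with the lowest fold change, and Smad6 as the only one, of the 33 members with a promoter in the table used, that held the Smad palindrome GTCTAGAC. The sequences are from RefSeq on GRCm38.p6, which is the assembly of mm10, and hold 250 bases before and 10 bases from the start site, 5′ to 3′ on the gene's strand. The windows are chr9:75775115-75775374 on the plus strand for Bmp5, chr14:46390660-46390919 on the minus strand for Bmp4, chr13:48260866-48261125 on the plus strand for Id4 and chr9:64022050-64022309 on the minus strand for Smad6. Capitals mark matches to any of 5 motifs searched on both strands.
Bmp5: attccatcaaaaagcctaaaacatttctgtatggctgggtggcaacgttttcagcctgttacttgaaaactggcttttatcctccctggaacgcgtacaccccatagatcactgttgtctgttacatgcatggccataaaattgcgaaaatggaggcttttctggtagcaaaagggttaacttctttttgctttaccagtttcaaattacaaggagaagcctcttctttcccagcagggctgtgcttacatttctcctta
Bmp4: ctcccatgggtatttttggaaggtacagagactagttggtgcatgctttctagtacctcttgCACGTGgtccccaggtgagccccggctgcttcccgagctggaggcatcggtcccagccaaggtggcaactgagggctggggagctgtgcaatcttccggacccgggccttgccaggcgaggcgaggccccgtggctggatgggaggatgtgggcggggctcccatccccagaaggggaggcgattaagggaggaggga
Id4: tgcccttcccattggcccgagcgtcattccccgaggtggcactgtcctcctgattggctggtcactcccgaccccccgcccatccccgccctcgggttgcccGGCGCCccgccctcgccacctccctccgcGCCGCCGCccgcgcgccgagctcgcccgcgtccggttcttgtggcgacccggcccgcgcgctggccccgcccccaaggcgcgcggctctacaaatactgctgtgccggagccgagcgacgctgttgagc
Smad6: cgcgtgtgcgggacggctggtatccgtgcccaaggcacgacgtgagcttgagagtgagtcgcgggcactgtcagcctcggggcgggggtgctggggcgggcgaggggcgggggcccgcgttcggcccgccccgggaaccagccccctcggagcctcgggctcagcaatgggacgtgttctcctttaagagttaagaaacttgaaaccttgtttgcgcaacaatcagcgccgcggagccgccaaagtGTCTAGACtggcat

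The motifs were GGCGCC and GCCGNCGC, GC-rich sequences bound by Smads, GTCTAGAC, the TATA box TATAAA and the E-box CACGTG. Of the members, 33 of 48 were matched in the RefSeq table. In windows of 300 bases around the start site, GGCGCC was found in 11 of these 33 members and in 11.9% of 32851 promoters. GCCGNCGC, which can overlap it, was found in 13 of 33 and in 9.76%. GTCTAGAC was found in 1 of 33 and in 0.213%, TATAAA in 5 of 33 and in 13.6%, and CACGTG in 4 of 33 and in 7.15%. Member promoters were richer in G and C, with a median of 66.3% against 52.7% over all promoters. Bmp5 had no match and a GC content of 42.3% in the printed window, against 75.0% for Id4, which held GGCGCC from base -148 and GCCGNCGC from base -119. The RefSeq start site used for Id4 lies 311 bases upstream of the start of the gene as counted. Bmp4 held CACGTG from base -188, and Smad6 held GTCTAGAC from base -4, across the start site. Id3, which rose, had no match, and its window is not printed because it lies in the first exon of the gene as GENCODE M21 gives it. A match is only a run of letters and does not show binding.

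The ligands spanned a wide range of levels. By the RPKM values the authors deposited, which are per gene length, Tgfb3 was the highest ligand in wild type at 28.7 ± 1.1 RPKM (SD, n = 3). Tgfb1 followed at 15.7 ± 4.0 RPKM and Tgfb2 at 9.36 ± 0.62 RPKM, and the 3 TGF-betas did not overlap each other. Bmp4, Inha and Bmp3 came next with overlapping values and means of 7.79, 7.69 and 6.998 RPKM. Gdf10 and Bmp5 overlapped at means of 5.65 and 5.58 RPKM, Bmp6 lay below both at 4.29 ± 0.09 RPKM (SD, n = 3), and Gdf6 was the lowest at 0.351 ± 0.140 RPKM. In Hdac3 CKO, Tgfb3 and Tgfb1 still led, Bmp5 went from place 8 to place 12 of the 16 ligands, and Bmp6 went from place 9 to place 6.

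**Figure D2:**
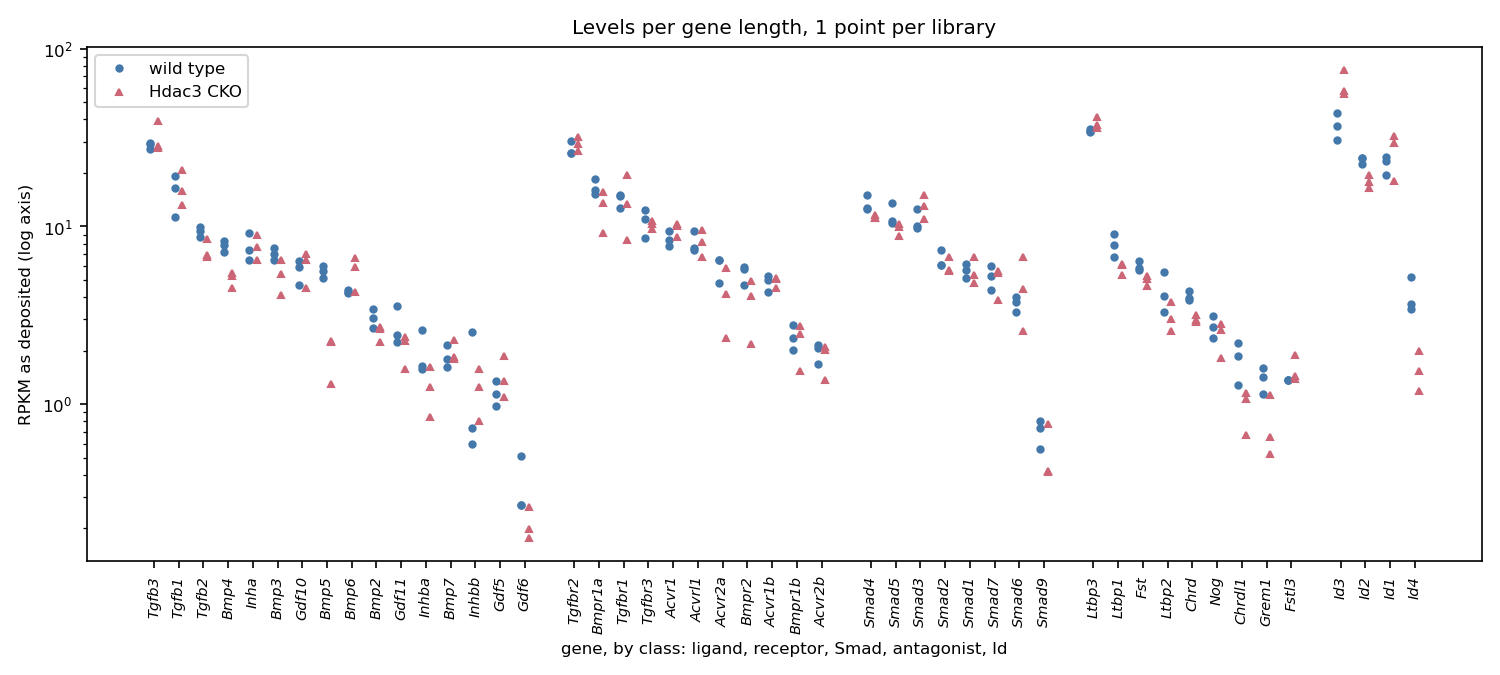
Deposited RPKM of each gene in each of the 6 libraries on a log axis, grouped by role and ordered by the wild type mean, with circles for wild type and triangles for Hdac3 CKO. Tgfb3, Tgfbr2, Smad4, Ltbp3 and Id3 lead their groups in wild type, and all triangles of Bmp5 lie below its circles.

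Bmp5 belongs to the same BMP subfamily as Bmp6 and Bmp7 and is the gene of the short ear mouse, which has defects of cartilage and bone. Its promoter, printed above, held none of the motifs. Bmp5 had 32.2, 22.9 and 27.0 CPM in the wild type libraries against 6.83, 11.8 and 12.3 CPM in Hdac3 CKO. Every Hdac3 CKO value was under every wild type value, and the lowest value was that of Hdac3 CKO replicate 1. The wild type mean was 27.4 ± 4.7 CPM (SD, n = 3) and the Hdac3 CKO mean 10.3 ± 3.0 CPM (SD, n = 3). The log2 fold change was -1.41 ± 0.23 (SE), with a 95% interval of -1.92 to -0.89 and an adjusted p of 0.0251 in edgeR. The exact permutation p, two-sided, was 0.1, which is the lowest value that 3 libraries against 3 can reach. When wild type replicate 1, 2 or 3 was left out, the edgeR adjusted p was 0.101, 0.0634 and 0.0656 in turn, and leaving out Hdac3 CKO replicate 3 gave 0.0636, with log2 fold changes of -1.55 to -1.27.

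Part of the Bmp5 counts may belong to another transcript. Bmp5 spans 75775364 to 75900310 on chromosome 9 (mm10), and its exons overlap those of Gm26903, which is annotated as antisense to it. Gm26903 had 895, 574 and 755 counts in wild type and 140, 258 and 273 counts in Hdac3 CKO. It fell by 1.45 on the log2 scale with an adjusted p of 0.0322 in edgeR, and its genotypes did not overlap. The strand setting of the counting is not given in the sources used here, so reads from the pair cannot be told apart, and the value of Bmp5 is uncertain to that extent. Bmp5 is 1 of 17 members, of 48, whose exons overlap those of another annotated gene.

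Bmp4, which acts in limb patterning and in osteoblast differentiation, had 21.3, 20.6 and 20.8 CPM in the wild type libraries against 16.0, 15.4 and 13.4 CPM in Hdac3 CKO. Its genotypes did not overlap, and the wild type values had an SD of 0.355 CPM. The log2 fold change of -0.49 ± 0.14 (SE) had an adjusted p of 0.14 in edgeR and did not pass. Exons of Bmp4 overlap those of Gm15217, which had 6 to 31 counts per library. Bmp6, a BMP made by growth plate chondrocytes, had 13.5, 11.5 and 12.6 CPM in the wild type libraries against 21.1, 13.6 and 19.0 CPM in Hdac3 CKO. Here all Hdac3 CKO libraries lay above wild type, with replicate 2 only just above the highest wild type library. The log2 fold change was 0.51 ± 0.18 (SE), at an adjusted p of 0.231 in edgeR. Exons of Bmp6 overlap those of Txndc5 on the other strand, a more highly counted gene at a log2 fold change of 0.47 and an adjusted p of 0.161 in edgeR.

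Tgfb3, the highest ligand per length, had 130.2, 112 and 111 CPM in the wild type libraries against 174, 123 and 128 CPM in Hdac3 CKO. The groups overlapped, with Hdac3 CKO replicate 1 above all others, and the log2 fold change was 0.27 ± 0.16 (SE), at an adjusted p of 0.457 in edgeR. Over the 16 ligands, 0 rose and 1 fell, 7 lay above 0 and 9 below, and the median was -0.10. At an unadjusted p under 0.05 in edgeR there were 3 of 16, against 15% of all genes, and these were Bmp5, Bmp4 and Bmp6. They were also the 3 whose genotypes did not overlap, against 22.5% of all genes. The other 12 ligands had log2 fold changes between -0.64 and 0.43. Inhbb, a subunit of activin B, was the least reproducible of them, with 14.4 CPM in wild type replicate 1 against 2.83 and 3.74 CPM in the other wild type libraries, and was singled out after its values were seen.

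Summed per length over Bmp2 to Bmp7, the BMP transcript level was 38.5, 32.5 and 36.5 CPM per kilobase in wild type and 29.9, 29.9 and 29.3 CPM per kilobase in Hdac3 CKO. All Hdac3 CKO sums lay below the wild type sums, but with the Bmp5 share taken out of each sum the genotypes overlap. Bmp5 made up 20.8%, 17.5% and 18.3% of the sum in wild type and 5.67%, 9.83% and 10.4% in Hdac3 CKO. Bmp6 made up 14.5%, 14.7% and 14.4% in wild type and 29.2%, 18.8% and 27.0% in Hdac3 CKO. Bmp6 per length was thus 0.699, 0.837 and 0.783 of Bmp5 in the wild type libraries and 5.15, 1.92 and 2.58 of it in the Hdac3 CKO libraries. Bmp5 lay above Bmp6 in all 3 wild type libraries and below it in all 3 Hdac3 CKO libraries. These shares rest on the same Bmp5 and Bmp6 counts as above and are given as a description. Summed likewise, the antagonists Nog, Grem1, Chrd, Chrdl1 and Fst were at 21.19, 18.17 and 18.6 CPM per kilobase in wild type. Fst, named above for trapping activins, made up 36.4% to 42.5% of the sum over the libraries of both genotypes. In Hdac3 CKO the antagonist sums were 16.16, 15.22 and 16.85 CPM per kilobase, also lower without overlap. With the Chrdl1 and Grem1 shares taken out of each sum the genotypes overlap, and none of these antagonists passed the test. The sums of Tgfb1 to Tgfb3 overlapped, at 62.5 to 66.07 CPM per kilobase in wild type and 64.75 to 87.35 CPM per kilobase in Hdac3 CKO.

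**Figure D3:**
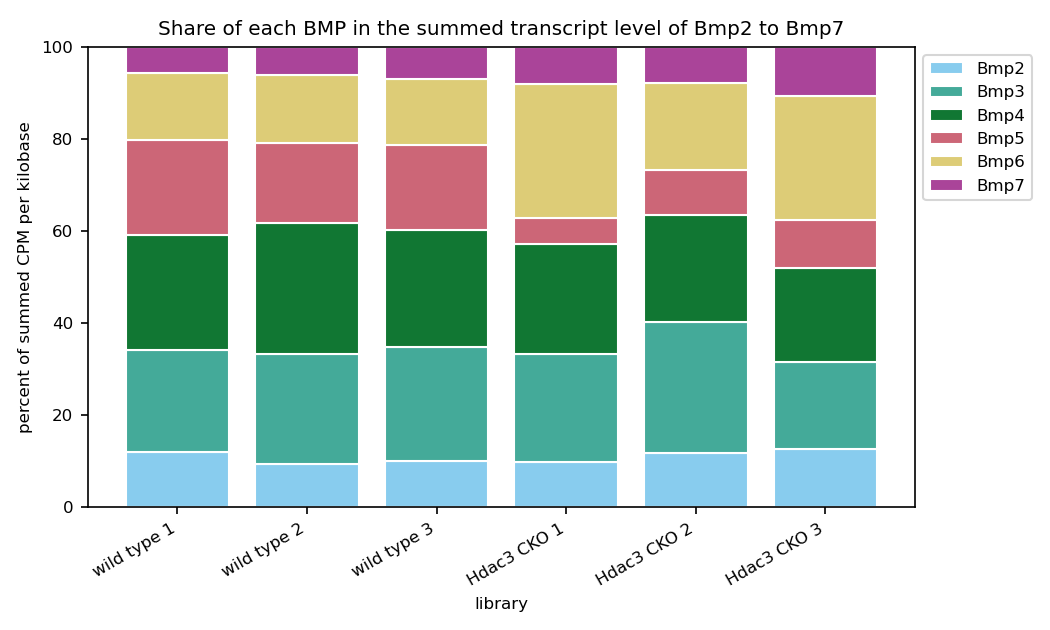
Percent of the summed CPM per kilobase of Bmp2 to Bmp7 contributed by each gene, 1 bar per library. The Bmp5 band is 17.5% to 20.8% in wild type and 5.67% to 10.4% in Hdac3 CKO, while the Bmp6 band is 14.4% to 14.7% and 18.8% to 29.2%.

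No receptor passed the test in edgeR, DESeq2 or limma-voom. At an unadjusted p under 0.05 in edgeR there was 1 of 11, against 15% of all genes. Of the 11 receptors, 8 lay above 0 and 3 below with a median of 0.06, and scaling by library totals, which lowers all genes, put 2 above and 9 below. Relative to the median of all genes, the receptor median was 0.0565 with TMM and 0.0689 with library totals. In wild type the type II TGF-beta receptor Tgfbr2 was the highest per length at 27.3 ± 2.4 RPKM (SD, n = 3), above Bmpr1a at 16.6 ± 1.8 RPKM and Tgfbr1 at 14.2 ± 1.3 RPKM, and these 3 did not overlap. Bmpr1b and Acvr2b were the lowest, at 2.39 and 1.96 RPKM with overlapping values.

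Acvr1, a type I BMP receptor whose activating mutations cause bone to form in muscle and tendon, had the smallest p of the receptors. It had 49.7, 50.6 and 48.3 CPM in the wild type libraries against 65.5, 63.8 and 56.2 CPM in Hdac3 CKO. The genotypes did not overlap, and the log2 fold change was 0.32 ± 0.12 (SE), at an adjusted p of 0.257 in edgeR. Tgfbr2 had 165, 161 and 148 CPM in the wild type libraries against 201, 183 and 170.1 CPM in Hdac3 CKO. It too did not overlap, at 0.23 ± 0.13 (SE) and an adjusted p of 0.426 in edgeR. Bmpr2, the type II BMP receptor, had 142, 115.6 and 99.98 CPM in the wild type libraries against 51.3, 117 and 98.2 CPM in Hdac3 CKO. Hdac3 CKO replicate 1 was the lowest library while replicate 2 lay within the wild type range, and the log2 fold change of -0.42 ± 0.27 (SE) had an adjusted p of 0.483 in edgeR.

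Several receptors shared that low value in Hdac3 CKO replicate 1, which was the lowest of the 6 libraries for 5 of 11 receptors and the highest for 4, against 31.2% and 30.3% of all genes. Wild type replicate 3 was the lowest for 4 receptors, against 9.39% of all genes, and wild type replicate 1 the highest for 4, against 18%. Against the mean of the other 2 Hdac3 CKO libraries, Hdac3 CKO replicate 1 was lower on the log2 scale for several receptors. The difference was 1.10 for Acvr2a, 1.06 for Bmpr2, 0.96 for Tgfbr1, 0.78 for Bmpr1b and 0.69 for Bmpr1a. These genes were chosen here after their values were seen. Tgfbr1 showed the spread plainly, with 72.0, 167 and 117.7 CPM in Hdac3 CKO against 110.5, 108 and 117.6 CPM in wild type. Across the 48 members, this deviation of replicate 1 had a Spearman correlation of -0.413 with gene length, and across all 20210 genes tested one of -0.173. Both correlations are across genes of the same libraries, which are not independent replicates, and are descriptions. The part of transcript length in these receptor values was not tested.

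**Figure D4:**
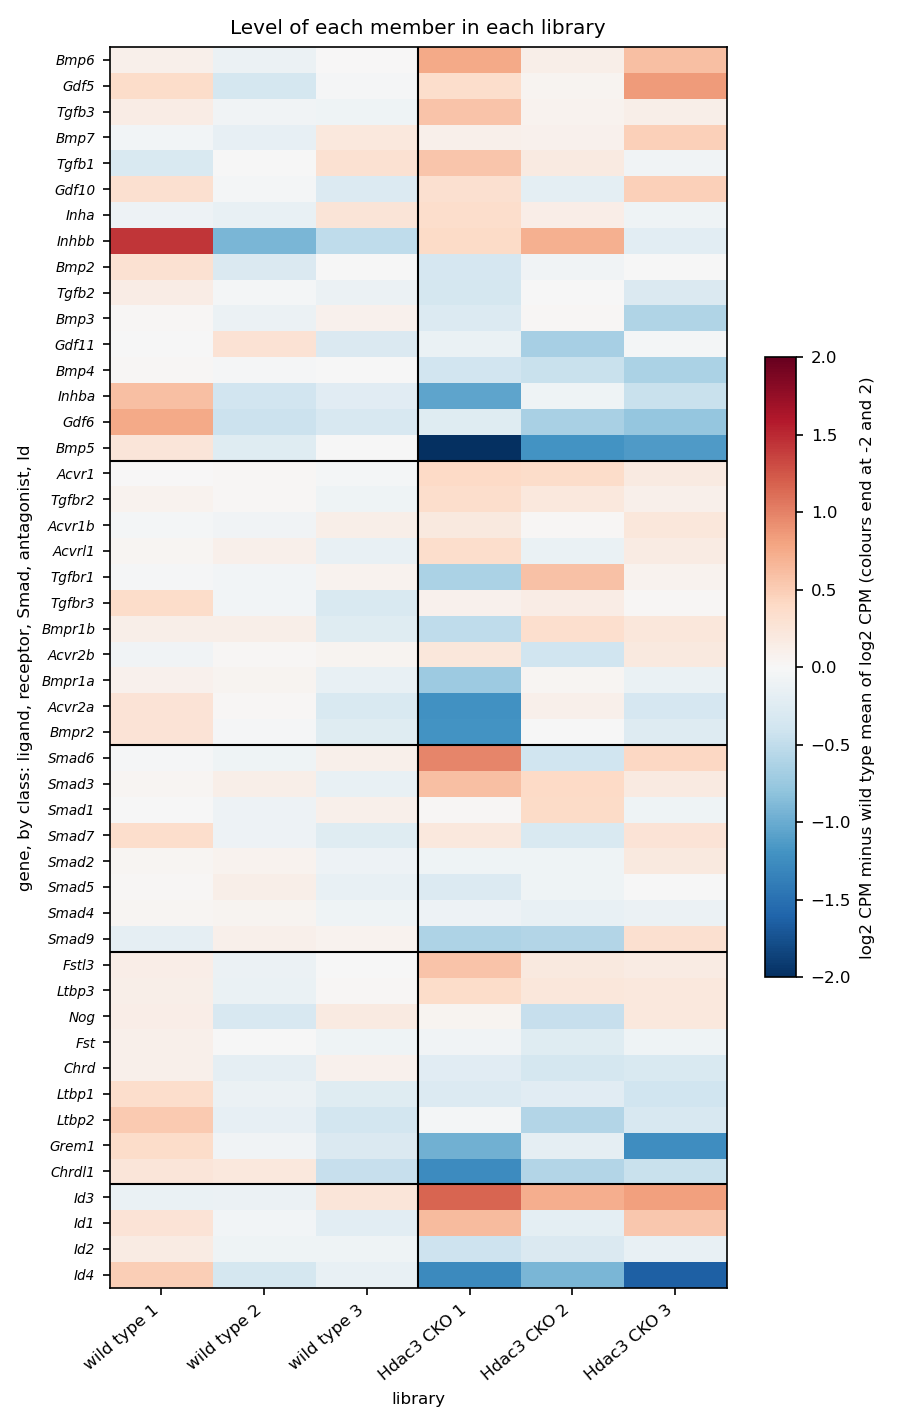
Log2 CPM of each gene in each library minus its wild type mean, with blue for lower and red for higher, genes grouped by role. Bmp5 and Id4 are blue and Id3 is red in all 3 Hdac3 CKO libraries, while Bmpr1a, Acvr2a and Bmpr2 are at their bluest in Hdac3 CKO replicate 1.

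No Smad passed the test in any of these 3 tools either. At an unadjusted p under 0.05 in edgeR there was 1 of 8, against 15% of all genes. Of the 8, 5 lay above 0 and 3 below with a median of 0.03, and scaling by library totals put 2 above and 6 below. Relative to the median of all genes, the Smad median was 0.0317 with TMM and 0.0304 with library totals. All 8 had log2 fold changes under 0.5 in size. Per length, Smad4, the partner shared by both branches, was the highest in wild type at 13.5 ± 1.4 RPKM (SD, n = 3) and overlapped Smad5, while Smad9 was the lowest at 0.697 ± 0.126 RPKM. Smad4 had 61.6, 62.6 and 56.4 CPM in the wild type libraries against 56.0, 54.3 and 55.3 CPM in Hdac3 CKO. The genotypes just failed to overlap, with a log2 fold change of -0.13 ± 0.12 (SE) and an adjusted p of 0.634 in edgeR.

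Smad3, which carries TGF-beta and activin signals, had 74.0, 77.9 and 64.9 CPM in the wild type libraries against 109, 94.9 and 82.0 CPM in Hdac3 CKO. All Hdac3 CKO libraries lay above wild type, and the log2 fold change of 0.40 ± 0.14 (SE) had an adjusted p of 0.238 in edgeR. The inhibitory Smad6, which BMP signalling is known to induce, had 14.0, 13.4 and 15.4 CPM in the wild type libraries against 28.2, 10.9 and 19.0 CPM in Hdac3 CKO. Its Hdac3 CKO libraries spread to both sides of wild type, with replicate 1 the highest and replicate 2 the lowest of all 6. The log2 fold change was 0.44 ± 0.29 (SE), with a 95% interval of -0.20 to 1.08 and an adjusted p of 0.494 in edgeR.

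Among the 9 antagonists and latent binding proteins, 0 rose and 0 fell in edgeR, DESeq2 or limma-voom. An unadjusted p under 0.05 in edgeR was reached by 2 of the 9, against 15% of all genes. In this group 7 lay below 0 and 2 above with a median of -0.30, and the count was 7 and 2 under each of the 3 scalings tried. Ltbp3, the latent TGF-beta binding protein known for its part in bone, was by far the highest per length at 34.6 ± 0.7 RPKM (SD, n = 3) in wild type, and Ltbp1 followed at 7.91 ± 1.19 RPKM. Ltbp3 had 236, 198 and 220 CPM in the wild type libraries against 281, 254 and 250.8 CPM in Hdac3 CKO. It lay above wild type in all Hdac3 CKO libraries, at a log2 fold change of 0.26 ± 0.13 (SE) and an adjusted p of 0.368 in edgeR.

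The BMP antagonists with the largest differences were Chrdl1 and Grem1, which encode a chordin-like protein and gremlin. Chrdl1 had 16.8, 16.5 and 10.4 CPM in the wild type libraries against 5.96, 9.54 and 10.4 CPM in Hdac3 CKO, so that both replicates 3 met at 10.4 CPM. Its log2 fold change was -0.76 ± 0.25 (SE), at an adjusted p of 0.206 in edgeR. Chrdl1 lies on the X chromosome, as does Xist, in which Hdac3 CKO replicate 3 stood apart, and the part of that in the Chrdl1 value was not tested. Grem1 had 8.85, 6.55 and 5.63 CPM in the wild type libraries against 3.54, 6.11 and 2.91 CPM in Hdac3 CKO. Hdac3 CKO replicate 2 overlapped wild type, and the log2 fold change was -0.75 ± 0.29 (SE), at an adjusted p of 0.276 in edgeR. Chrd, which encodes chordin, had 30.6, 25.2 and 30.2 CPM in the wild type libraries against 24.3, 22.4 and 23.2 CPM in Hdac3 CKO. Its genotypes did not overlap, at -0.30 ± 0.13 (SE) and an adjusted p of 0.333 in edgeR. Noggin and follistatin transcripts lay closer to 0, with Nog at -0.06 ± 0.23 (SE) and Fst at -0.13 ± 0.14 (SE).

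The 4 Id genes, which encode inhibitors of basic helix-loop-helix transcription factors, spanned the widest range of log2 fold changes of the 5 groups, from -1.29 to 0.90. Id3 had 72.5, 73.2 and 93.5 CPM in the wild type libraries against 177, 131 and 139 CPM in Hdac3 CKO. Every Hdac3 CKO value was over every wild type value, with replicate 1 the highest. The wild type mean was 79.7 ± 11.9 CPM (SD, n = 3) and the Hdac3 CKO mean 149 ± 25 CPM (SD, n = 3). The log2 fold change was 0.90 ± 0.16 (SE), with a 95% interval of 0.54 to 1.27 and an adjusted p of 0.0344 in edgeR. The exact permutation p was again 0.1, the lowest possible. When wild type replicate 1, 2 or 3 was left out, the edgeR adjusted p was 0.156, 0.170 and 0.0534 in turn. It was 0.0882 when Hdac3 CKO replicate 3 was left out and 0.0623 with scaling by library totals, with log2 fold changes of 0.71 to 1.03, and Id3 kept its call in 9 of 19 alternative settings. No other annotated gene shares an exon position with Id3 (chromosome 4, 136143497 to 136145755).

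Id4, whose GC-rich promoter is printed above, went the other way and had 11.4, 6.38 and 7.30 CPM in the wild type libraries against 3.34, 4.32 and 2.63 CPM in Hdac3 CKO. The genotypes did not overlap, and wild type replicate 1 was the highest. Its log2 fold change was -1.29 ± 0.27 (SE), and the adjusted p was 0.0587 in edgeR, 0.000455 in DESeq2 and 0.0282 in edgeR with no filter on low counts. The adjusted p was 0.0868 in limma-voom, and 0.0568 to 0.28 in edgeR when any 1 library or both replicates 3 were left out. Id4 was called in 3 of the 19 alternative settings. The exons of Id4 overlap those of the antisense A330033J07Rik, which stood at a log2 fold change of -1.21 with an adjusted p of 0.157 in edgeR. Id2 had 40.9, 34.5 and 34.2 CPM in the wild type libraries against 27.4, 29.8 and 33.0 CPM in Hdac3 CKO, without overlap. Its log2 fold change was -0.28 ± 0.14 (SE), at an adjusted p of 0.370 in edgeR. Id1, the member of the family most used as a readout of BMP signalling and named here after its values were seen, had 38.0, 30.3 and 27.2 CPM in the wild type libraries against 48.8, 27.7 and 45.7 CPM in Hdac3 CKO. Hdac3 CKO replicate 2 lay among the wild type libraries, and the log2 fold change was 0.35 ± 0.22 (SE), at an adjusted p of 0.469 in edgeR.

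**Figure D5:**
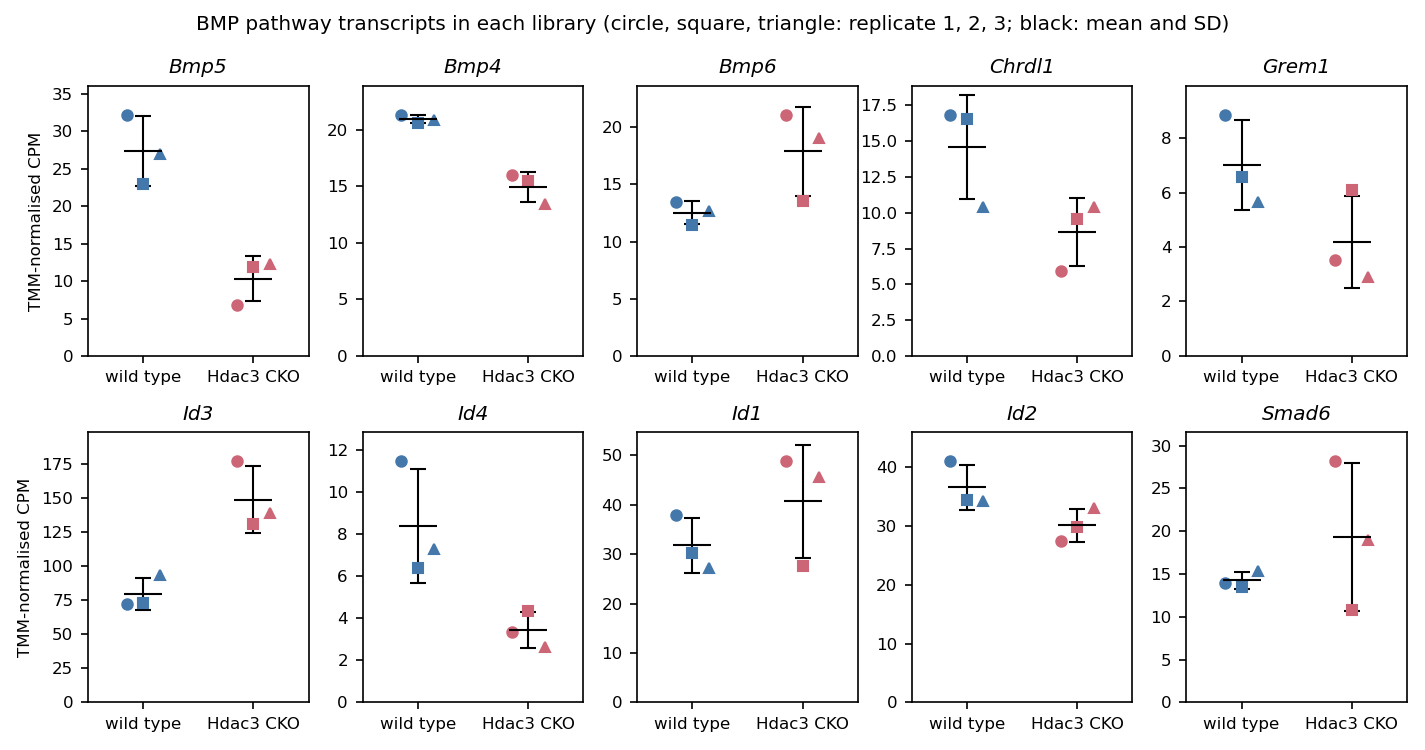
TMM-scaled CPM of 10 genes in each library, with a symbol for each replicate and black bars for the mean and SD of 3 libraries. Bmp5, Bmp4, Bmp6, Id2, Id3 and Id4 show no overlap between genotypes, while Hdac3 CKO replicates 1 and 2 lie far apart for Smad6 and Id1.

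Within the Id family the balance differed between the genotypes. Of the Id transcripts per length, Id3 made up 36.0%, 41.7% and 48.8% in wild type and 60.1%, 59.4% and 53.7% in Hdac3 CKO. Id4 made up 6.14%, 3.92% and 4.11% in wild type and 1.22%, 2.12% and 1.09% in Hdac3 CKO. Id3 per length was 5.87, 10.6 and 11.9 times Id4 in the wild type libraries and 49.1, 28.0 and 49.1 times Id4 in the Hdac3 CKO libraries. Id3 and Id4 are the Id genes with the highest and the lowest fold change. Their shares and ratio rest on the same counts as above and are given as a description. Per length, Id3 led in wild type at 36.9 ± 6.6 RPKM (SD, n = 3), above Id2 at 23.7 ± 1.0 RPKM and Id1 at 22.6 ± 2.7 RPKM, which overlapped. In Hdac3 CKO Id1 stood above Id2, at means of 26.6 and 17.9 RPKM.

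Other cell types differed between the genotypes beside these genes. All 7 macrophage markers were higher in Hdac3 CKO without overlap and 5 of them rose, with summed levels of 261 to 278 CPM in wild type and 481 to 558 CPM in Hdac3 CKO. All 7 neutrophil markers were lower without overlap and 5 fell, with summed levels of 81.1 to 245 CPM in wild type and 17.0 to 24.4 CPM in Hdac3 CKO. Of 8 erythroid markers 5 were lower without overlap and 2 fell, and of 7 B lymphoid markers 6 were lower without overlap and 1 fell. Of 5 tendon markers, 1 rose, which was Thbs4, and the other 4 overlapped singly and in their sum, at 316 to 459.7 CPM in wild type and 299 to 455 CPM in Hdac3 CKO. None of 6 osteoclast markers passed the test in edgeR, but 5 were higher at an unadjusted p under 0.05, 3 were higher without overlap and DESeq2 called 3, with a median log2 fold change of 0.73. Their sums overlapped, at 810 to 1422 CPM in wild type and 1327 to 1768 CPM in Hdac3 CKO, as did those of 6 endothelial markers, of which 1 was higher and 1 lower without overlap. Of 4 joint and perichondrium markers, 0 passed the test in edgeR, 1 lay above 0 and 3 below, with a median log2 fold change of -0.42. Among them 1, Erg, was lower without overlap, and their sums overlapped, at 502 to 711 CPM in wild type and 379 to 548 CPM in Hdac3 CKO. Of all the listed markers, Pax5 (B lymphoid) was at 0 in 1 library and Lep (adipocyte) in 4 libraries, and the others had counts in all 6. The chondrocyte sum was 8938 CPM in wild type replicate 3 and 16626 CPM in Hdac3 CKO replicate 3, against 1866 to 2549 CPM in the other 4 libraries. With the mean of the chondrocyte markers as a covariate, the log2 fold change was -1.40 for Bmp5 and 0.92 for Id3, and the Id3 adjusted p was 0.0606 in edgeR. With the muscle markers as a covariate it was -1.02 for Bmp5 and 0.74 for Id3, and the Id3 adjusted p was 0.0934 in edgeR. The part of the macrophage, osteoclast, other blood cell, and joint and perichondrium markers in the values of Bmp5, Id3, Id4 and the other pathway genes was not tested.

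Of 81 other genes of the pathway, 73 were tested, and 3 rose and 0 fell, again against 0.703% of all genes in the higher direction. These lists, too, were chosen with earlier results of these data known, so their shares are a description. The median log2 fold change was 0.07, with 40 above 0 and 33 below. At an unadjusted p under 0.05 in edgeR, 13 were higher, against 7.79% of all genes, and 5 lower, against 7.2%. DESeq2 called 6 higher and 2 lower (Dlx5 and Dlx6), against 4.12% of all genes in either direction, and limma-voom called 3 higher and 0 lower. Those that rose were Tgfbi, a matrix protein induced by TGF-beta, Kcp, a secreted chordin-like modulator of BMP and TGF-beta, and Gdf15, a distant member of the ligand family known as a stress hormone.

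Tgfbi had 237, 202 and 199 CPM in the wild type libraries against 522, 420.2 and 368 CPM in Hdac3 CKO. The genotypes did not overlap, at a log2 fold change of 1.04 ± 0.16 (SE) and an adjusted p of 0.0214 in edgeR. Kcp had 34.3, 29.8 and 29.9 CPM in the wild type libraries against 52.6, 59.2 and 61.5 CPM in Hdac3 CKO. It did not overlap, at 0.88 ± 0.13 (SE) and an adjusted p of 0.0184 in edgeR, and its exons overlap those of the antisense Gm26627, whose counts were 19 to 62 per library. Gdf15 was scarce, with 208 counts in all 6 libraries. It had 0.282, 0.252 and 0.366 CPM in the wild type libraries against 1.43, 0.987 and 1.42 CPM in Hdac3 CKO, at 2.08 ± 0.34 (SE) and an adjusted p of 0.0251 in edgeR. Leaving out wild type replicate 1, 2 or 3 took the adjusted p of each of the 3 genes above 0.05, to between 0.0634 and 0.112, and leaving out Hdac3 CKO replicate 3 gave 0.0744 for Kcp and 0.0882 for Gdf15. For Gdf15 it was 0.0501 without Hdac3 CKO replicate 1.

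By role, 1 of 12 other ligands rose, 0 of 7 other receptors and coreceptors, 1 of 21 other extracellular regulators, 0 of 18 intracellular regulators and 1 of 15 known transcriptional targets. Among the receptors, Bambi, a pseudoreceptor that blocks signalling, had 30.2, 30.2 and 37.2 CPM in the wild type libraries against 52.3, 43.96 and 44.1 CPM in Hdac3 CKO. Its genotypes did not overlap, at 0.52 ± 0.14 (SE) and an adjusted p of 0.124 in edgeR. The endothelial coreceptor Eng had a log2 fold change of 0.44 ± 0.18 (SE), at an adjusted p of 0.282, and overlapped. Inside the cell, Pmepa1, a TGF-beta target whose protein binds Smads, had 46.5, 50.1 and 61.0 CPM in the wild type libraries against 93.9, 70.4 and 76.2 CPM in Hdac3 CKO. It did not overlap, at 0.61 ± 0.16 (SE) and an adjusted p of 0.111 in edgeR. The corepressor Ski had 0.31 ± 0.15 (SE) and an adjusted p of 0.353. The transcription factor genes Dlx5 and Dlx6, BMP targets in osteoblasts, were named after their values were seen. Their log2 fold changes were -0.88 ± 0.21 (SE) and -1.04 ± 0.25 (SE), with adjusted p of 0.0881 and 0.0926 in edgeR and no overlap. Of the 15 known transcriptional targets, 8 lay above 0 and 7 below. Without overlap, 3 were higher and 3 lower, against 11.5% and 10.9% of all genes. Junb was higher without overlap, at 0.77 ± 0.20 (SE) and an adjusted p of 0.111 in edgeR, while Msx1 was at -0.02 ± 0.21 (SE).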

How the data were processed

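RNA was extracted from cleaned limb bones with TRIzol and made into mRNA libraries with a TruSeq v2 kit, per the labels' protocols. The deposited table holds counts of reads per gene as whole numbers, made by the authors with bcl2fastq 1.8.4, TopHat2 2.1.0, Subread and featureCounts on mm10, per the submitters' processing notes. Neither the annotation nor the strand setting is given in the sources used here. They also deposited RPKM values, whose library totals exceed the counts in genes (72.1% to 87.0% lie in genes).

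Groups were taken from the genotype label, and replicates were numbered in record order, which pairs no libraries. Counts were scaled by TMM in edgeR 4.0.16 (R 4.3.3), filtered by filterByExpr and tested with the robust quasi-likelihood fit in its newer form (legacy = FALSE), without covariates and over all 20210 genes, which held 99.9% of counts. A gene was called at an adjusted p under 0.05. The fit was tested on simulated counts with known changes before use. Values per library are CPM, with errors as SD over 3 libraries or SE of the fit. Levels were compared between genes by RPKM, and sums and shares by CPM per kilobase. Alternatives used DESeq2 1.42.0 and limma 3.58.1, the latter on counts (voom) or on log2(RPKM + 1) and log2(RPKM + 0.1). The older form of the edgeR fit was added after the data were seen. Exon overlaps came from GENCODE M21 and promoters from RefSeq.

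Genes named with all their values are the called members, the 3 of each class with the smallest p, the one of each class with the highest mean RPKM, Id3 and Bmp4. Of the other pathway genes they are those called or, in lists with none, the 2 with the smallest p. The members and lists were chosen with earlier results of these data known.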

Additional observations from a re-analysis of the deposited data

How the results depend on the processing

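Over 19 alternative settings and 24 named genes, 414 of 455 values kept their direction and their side of the threshold, 36 lost the call, 5 gained it and 0 reversed. Only genes called in the main fit could lose a call, and these were Bmp5, Id3, Tgfbi, Kcp and Gdf15. All 36 losses fell on them, and most of the 414 values belong to genes that had no call to lose. Bmp5 kept its call in 14 of the 19 settings, with log2 fold changes of -1.57 to -1.02, and Id3 in 9, with 0.71 to 1.08. Tgfbi kept its call in 13 of 19 settings, Kcp in 11 of 19 and Gdf15 in 11 of the 18 that gave it a value. The number of members that rose was 0 with library totals, with limma on log2(RPKM + 1) or log2(RPKM + 0.1), with either marker covariate and without both replicates 3, and 0 to 1 when each library was left out in turn. The number that fell was 2 with no filter, with DESeq2 and with log2(RPKM + 0.1), namely Bmp5 and Id4, 0 without both replicates 3, and 0 to 1 when each library was left out. The other pathway genes that rose were 6 with DESeq2, 1 in both RPKM fits, 0 without both replicates 3, and 0 to 3 when each library was left out, and those that fell were 2 with DESeq2. Hdac3 was at -0.74 with log2(RPKM + 1) (limma adjusted p of 0.0558), at -0.71 with the chondrocyte covariate (edgeR 0.0663), at -0.65 without both replicates 3 (edgeR 0.285), and at -0.76 to -0.67 when each library was left out. Over all genes, 238 were called, against 828 with DESeq2, 157 with limma-voom, 96 and 140 in the RPKM fits, 143 and 97 with the chondrocyte and muscle covariates, 23 to 175 when each library was left out, and 0 without both replicates 3, where 2 libraries per genotype remain and 2309 genes had an unadjusted p under 0.05 in edgeR. The cause of these differences was not tested, beyond the fewer libraries where some were left out. In that last fit Bmp5 was at -1.56 and Id3 at 1.08 in edgeR, each at an unadjusted p near 0.0011. No paired analysis was possible because the labels give the genotypes no shared replicate numbers.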
